A study of Mus musculus with 2 samples.

Results

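The proteasome genes described here are the protein-coding mouse genes whose symbol starts with Psma, Psmb, Psmc, Psmd, Psme, Psmf or Psmg followed by a number. This name rule found 50 genes among 55536 mouse genes in the tables, 22028 of them protein-coding. They were measured by total RNA sequencing in heart tissue of 2 B6CASTF1/J females aged 36 days, an F1 cross of the inbred strains C57BL/6J and CAST/EiJ. No treatment, transgene or deletion is named in the labels. The RNA input was 300 ng per library, and the animals numbered 3 and 4 in the labels are called replicate 1 and replicate 2. The labels call them biological replicates with separate tissue samples, although both carry the same donor identifier. They form 1 group, so no comparison between conditions was possible, and the p-values below compare the reads of 2 libraries.

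The proteasome is the large protease that degrades proteins tagged with ubiquitin in the cytosol and nucleus. Its 20S core is a barrel of stacked rings, in which outer rings of alpha subunits guard the entry and inner rings of beta subunits hold the cutting sites. Only the subunits beta1, beta2 and beta5 carry these sites, and in cells exposed to interferon an immunoproteasome form can take the place of each. The 19S regulatory particle caps the core: its base unfolds substrates with ATP, and its lid removes ubiquitin. In heart muscle this system clears damaged proteins and takes part in the turnover of the contractile apparatus.

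The libraries held 39053339 and 38332179 expected counts, a read estimate per gene in which a read that fits several genes is split among them. A gene with 0 counts could still have up to 3, or 0.0772 and 0.0786 CPM of the mouse total, and such limits cover counting error only. All 5 cardiomyocyte markers were detected, with Myh6, the main myosin heavy chain of the adult mouse heart, at 8321 and 8958 TPM. The libraries were unlike in blood and fat RNA: 6 erythroid markers summed to 36363 TPM in replicate 1 and 11883 in replicate 2, and 3 brown fat markers to 94.6 and 29.7. Of 6 leukocyte markers 4 were detected, and the 6 summed to 70.1 and 72.8 TPM. The B cell gene Cd79a was at 0.30 and 0.63 TPM and the T cell gene Cd3e at 0.14 and 0.17. In bulk tissue, fewer cells of a type and less RNA per cell cannot be told apart.

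Levels are given in TPM, an abundance corrected for transcript length and library size, so that genes can be compared with each other. They come from the first of 2 deposited quantifications unless the second is named. Detection means 1 TPM or more in both libraries, and 47 of the 50 genes met it. The 50 together took 86210 counts in replicate 1 and 80741 in replicate 2, or 0.222% and 0.212% of the mouse counts, and summed to 1929 and 1860 TPM. Of the TPM of nuclear protein-coding genes this was 0.465% and 0.502%, a share that was higher in replicate 2 where the other measures were lower. Of the 50 genes, 40 were above the median of the detected protein-coding genes, and these included all 14 constitutive core genes and all 17 genes of the regulatory particle.

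**Figure D1:**
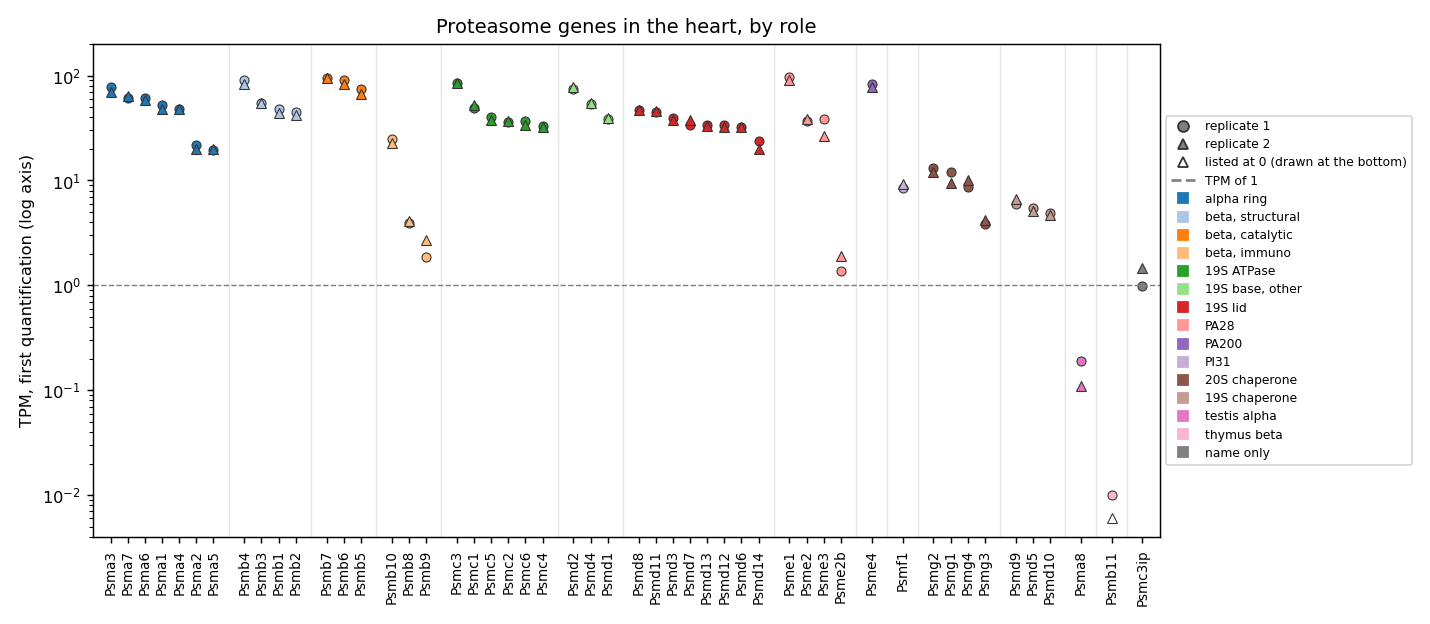
TPM of the first quantification on a log axis for each of the 50 proteasome genes, ordered by role, with a circle for replicate 1 and a triangle for replicate 2. Core and regulatory particle genes lie between 19.7 and 94.7 TPM in both libraries, the assembly chaperones between 3.82 and 13.2, and the testis and thymus forms under 1.

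Start sites of 42 of the 50 genes were matched by symbol to windows in RefSeq (build GRCm38.p6), each of 250 bases before to 50 after an annotated start. They were searched on both strands for 3 motifs. The core of the antioxidant response element, TGACNNNGC, through which NRF1 and NRF2 act, was in the windows of 6 of the 42 genes (14.3%) and in 12.4% of all 32851 windows. The 6 were Psmb5, Psmb6, Psmc6, Psmd12, Psmd9 and Psme4. The CCAAT box was in 15 of 42 (35.7%) against 37.4% of all windows, and in 5 of the 7 alpha ring genes (Psma1, Psma2, Psma3, Psma6 and Psma7). The core of the interferon regulatory factor motif, GAAANNGAA, was in 7 of 42 (16.7%) against 8.56% of all windows, and in none of the 3 immunoproteasome windows. For Psmb8 and Psmb9 the 120 bases before the RefSeq start lie wholly inside the gene as annotated in GENCODE M21. For Psmb10 52 of these 120 bases do. These windows may thus miss sequence before the M21 starts. A match is a run of letters and not a binding site, and a window without one says nothing of the factor.

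The stretches shown are the 120 bases that end at the annotated start, 5′ to 3′ on the gene's strand, with matches in capitals. Psmb5 (chr14:54617996-54618115, minus strand) and Psmb6 (chr11:70525237-70525356, plus strand) are shown because they are catalytic genes with the antioxidant response element core (Psmb7 was not searched), at 70.7 ± 5.71 and 86.5 ± 4.97 TPM. The last 27 bases of the Psmb5 stretch lie inside the gene as annotated in M21. Psma1 (chr7:114276117-114276236, minus strand) and Psma2 (chr13:14613122-14613241, plus strand) are alpha ring genes with a CCAAT box but unlike levels, 50.1 ± 2.73 and 20.7 ± 1.32 TPM. Psme3 (chr11:101316093-101316212, plus strand) has the smallest adjusted p between the animals among these genes and has a CCAAT box on the other strand, which reads ATTGG here.
Psmb5: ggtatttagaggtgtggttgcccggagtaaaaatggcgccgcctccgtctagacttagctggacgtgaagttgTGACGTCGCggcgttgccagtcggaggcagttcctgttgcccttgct
Psmb6: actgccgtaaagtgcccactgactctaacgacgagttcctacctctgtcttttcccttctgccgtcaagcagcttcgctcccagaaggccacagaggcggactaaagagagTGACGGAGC
Psma1: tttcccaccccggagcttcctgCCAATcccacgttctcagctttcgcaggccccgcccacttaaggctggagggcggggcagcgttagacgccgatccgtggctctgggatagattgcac
Psma2: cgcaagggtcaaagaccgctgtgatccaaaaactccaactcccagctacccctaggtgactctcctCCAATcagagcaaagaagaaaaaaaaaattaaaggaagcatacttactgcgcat
Psme3: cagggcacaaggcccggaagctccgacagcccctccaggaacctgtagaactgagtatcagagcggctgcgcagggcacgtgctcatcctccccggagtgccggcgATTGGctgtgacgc

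In Psmb5 the match TGACGTCGC covers the bases 47 to 39 before the start, and in Psmb6 the match TGACGGAGC covers the last 9 bases before it. The CCAAT boxes lie 98 to 94 bases before the start of Psma1 and 54 to 50 before that of Psma2 (Psma1 has another on the opposite strand, 126 to 122 bases before, outside the stretch), and in Psme3 14 to 10 before. The windows of Psmb5 and Psmb6 hold the same motif at different distances from the start.

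The alpha ring genes had a median of 52.0 TPM in replicate 1 and 48.5 in replicate 2. Psma3, at 77.3 and 69.4 TPM, was the highest of the 7 and Psma5, at 19.7 and 19.9, the lowest. Psma2 was close to Psma5, at 21.7 and 19.8 TPM, so that the 2 libraries put these 2 genes in opposite order. Psma7 (62.6 ± 1.39 TPM, SD, n = 2), Psma6 (60.0 ± 2.43), Psma1 (50.1 ± 2.73) and Psma4 (48.2 ± 0.467) lay between. Psma7 and Psma6 did not differ beyond their spread, at 61.6 and 63.6 TPM against 61.7 and 58.2. The 7 genes of 1 ring, whose proteins are assembled in equal numbers, thus spanned 3.71-fold in RNA over all annotated transcripts. Of the Psma3 TPM, however, 44.1% ± 1.94 was in transcripts not annotated as protein-coding, and 92.2% ± 6.75 in the second quantification. The span is therefore not one of coding RNA. Psma8, which replaces Psma7 in the spermatoproteasome of the testis, had 5 counts in replicate 1 and 3 in replicate 2, or 0.19 and 0.11 TPM.

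The beta ring genes had a median of 74.7 and 66.6 TPM. By gene-level TPM the highest were the beta2 subunit Psmb7, which cuts after basic residues, at 94.2 and 94.7, and the structural subunit Psmb4 at 91.3 and 83.2. The beta1 subunit Psmb6, which cuts after acidic residues, was at 90.04 and 83.0 TPM. The beta5 subunit Psmb5, which cuts after hydrophobic residues and is the main target of bortezomib, was at 74.7 and 66.6 TPM. Of the Psmb4 TPM, however, 29.1% ± 2.91 was in transcripts not annotated as protein-coding. The coding transcript Psmb4-201 was at 62.9 and 60.7 TPM. This was below Psmb5-201 at 73.9 and 66.6 and Psmb6-201 at 80.4 and 71.9. The other structural subunits were lower: Psmb3 at 54.5 ± 0.148 TPM, Psmb1 at 46.0 ± 2.32 and Psmb2 at 43.6 ± 2.30 (SD, n = 2). All 3 constitutive catalytic genes were thus above Psmb1, Psmb2 and Psmb3 in both libraries of the first quantification. In the second, Psmb5 at 69.5 and 65.1 TPM overlapped Psmb3 at 65.9 and 67.1.

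The immunoproteasome genes were lower than the constitutive genes whose products they replace. Psmb8, the beta5 form, was at 3.90 and 4.11 TPM, from 120 counts in each library. Psmb9, the beta1 form, was at 1.87 and 2.69 TPM, from 55 and 58 counts. Psmb10, the beta2 form, was at 24.7 and 22.9 TPM, from 534 and 529 counts, and was the only one of the 3 above the median of detected coding genes. As a share of the TPM of each pair, Psmb9 made up 2.04% and 3.14% of Psmb9 and Psmb6, with a mean of 2.59% ± 0.781. Psmb8 made up 4.96% and 5.81% of Psmb8 and Psmb5, a mean of 5.39% ± 0.60. Psmb10 made up 20.8% and 19.5% of Psmb10 and Psmb7, a mean of 20.1% ± 0.901 (SD, n = 2). The 3 shares did not overlap between pairs in either library, and the order Psmb10, Psmb8, Psmb9 was the same in both. The thymus form of beta5, Psmb11, had 1 count in replicate 1 and 0 in replicate 2, and 7.80 and 5.62 in the second quantification.

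These shares depend on which transcripts are counted. In the second quantification they were 2.82% ± 1.53, 5.76% ± 0.889 and 20.1% ± 0.539 for Psmb9, Psmb8 and Psmb10. Of the Psmb10 TPM, however, 61.4% ± 4.82 was in short transcripts annotated as retained introns or as processed transcripts without a coding sequence. Restricted to protein-coding transcripts, a choice made after the data were seen, the share of Psmb10 was 8.85% ± 0.556 and that of Psmb8 2.97% ± 0.497. Psmb9 was at 2.35% ± 0.527 by this measure. These coding shares are those of the first quantification. There Psmb8 and Psmb9 overlapped, at 2.62% and 3.32% against 1.98% and 2.72%, while Psmb10 stayed above both in each library. In the second quantification the coding share was 5.215% ± 1.35 for Psmb8, 2.691% ± 1.12 for Psmb9 and 9.765% ± 0.667 for Psmb10. Psmb8 and Psmb9 did not overlap there.

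**Figure D2:**
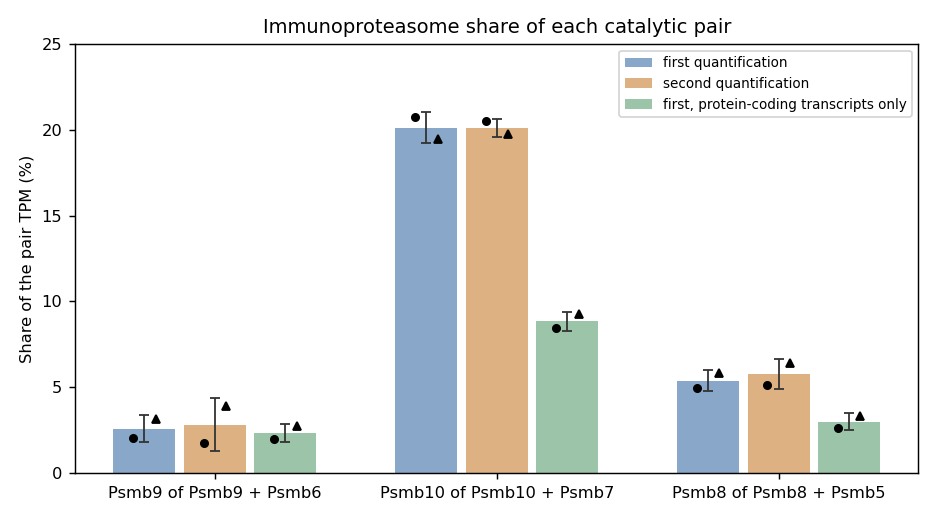
Share of the immunoproteasome gene in the summed TPM of each catalytic pair, in percent. Bars are means with SD over 2 libraries, circles replicate 1 and triangles replicate 2, for the first quantification, the second, and the protein-coding transcripts of the first. The Psmb10 bar falls from 20.1% to 8.85% when only coding transcripts are counted.

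Psmb8 and Psmb9 lie in the class II region of the major histocompatibility complex on chromosome 17, beside the peptide transporter genes Tap1 and Tap2. In build mm10 Psmb9 spans 34181987 to 34187764 on the minus strand and Psmb8 34197721 to 34201454 on the plus strand, with Tap1 between them. Psmb9 and Tap1 run away from each other, and their annotated 5′ ends overlap by 212 bases. Tap1 was also low, at 1.76 and 1.46 TPM, and Tap2 was at 9.14 and 8.49. Of 8 interferon and antigen presentation genes listed for comparison 7 were detected, from Tap1 to the class I light chain B2m at 59.6 and 58.5 TPM. Nlrc5, the class I transactivator, was not, at 0.42 TPM in both libraries. Others on this list were H2-K1 (28.0 ± 0.672 TPM), H2-D1 (33.7 ± 3.03), Tapbp (38.3 ± 1.74) and Irf1 (7.24 ± 0.778; SD, n = 2). In the test between the libraries described below, 0 of the 8 passed at any fold, against 21.9% of all genes tested. Of the leukocyte markers, Ptprc (1.67 and 1.66 TPM) and Cd68 (2.53 and 3.28) were of the order of Psmb9. Csf1r (14.8 and 13.7 TPM) and Lyz2 (50.7 and 53.4) were above Psmb8 and Psmb9, and Cd79a and Cd3e were below both. The part of leukocytes in the immunoproteasome levels was not tested.

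In the 19S regulatory particle the 17 genes had a median of 38.9 and 37.4 TPM and spanned 3.93-fold. Among the 6 ATPases of the base, which unfold the substrate, Psmc3 was the highest at 85.6 TPM in both libraries. The other 5 were closer together in the first quantification, from Psmc1 at 49.0 and 53.0 TPM to Psmc4 at 33.2 and 32.0. Psmc5 (39.3 ± 1.85), Psmc2 (36.6 ± 0.530) and Psmc6 (35.4 ± 2.42) lay between. In the second quantification Psmc6 was the highest of these 5, at 72.9 and 69.9 TPM, and Psmc4 the lowest, at 33.9 and 33.98. The large scaffold Psmd2 was at 75.04 and 77.06 TPM, above its partner scaffold Psmd1 at 38.9 and 39.6, with a ratio of 1.94 between the means. Psmd4, a ubiquitin receptor, was at 53.8 and 54.6 TPM. The receptor Adrm1 and the small subunit Sem1, which the name rule leaves out, were at 31.2 ± 1.53 and 37.6 ± 2.31 TPM (SD, n = 2), within the range of the named subunits.

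The 8 lid genes had a median of 33.9 and 35.3 TPM. The lowest was Psmd14, the deubiquitinase of the lid, at 23.57 and 20.02 TPM. By gene-level TPM it was the lowest of all 17 regulatory particle genes in both libraries. This rank does not hold for coding transcripts. In replicate 1 of the first quantification the coding transcripts of Psmd13 (mainly Psmd13-208 at 10 TPM and Psmd13-201 at 8.17) were below Psmd14-201 at 20.24. In replicate 2 they were above it, at 12.46 and 6.74 TPM against 17.97. In the second quantification Psmd14-201 was at 23.6 and 20.95 TPM. Psmc6-201 (16.45 and 16.44) and Psmc4-201 (17.45 and 19.13) were lower there. So were the coding transcripts of Psmd13, led by Psmd13-201 at 16.74 and 16.31 TPM. The structural lid subunits ranged from Psmd8 (47.3 ± 0.148 TPM) and Psmd11 (45.8 ± 0.530) to Psmd6 (32.2 ± 0.0354). Psmd3 (38.3 ± 1.34 TPM), Psmd7 (35.5 ± 2.69), Psmd13 (33.5 ± 0.424) and Psmd12 (33.1 ± 1.14; SD, n = 2) lay between. Psmd13 overlaps Sirt3, a gene on the other strand at 22.6 TPM.

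The spread of levels was described by the standard deviation of log2 TPM over the subunits of a complex. It was 0.70 and 0.69 in the 2 libraries for the 14 genes of the constitutive core and 0.46 and 0.50 for the 17 of the regulatory particle. For comparison it was 0.39 and 0.31 over the 8 genes of the CCT chaperonin, a ring complex that folds proteins, and 1.13 and 1.11 over 10 genes of the COP9 signalosome, a relative of the lid. Over all 11042 detected nuclear protein-coding genes it was 1.86 and 1.84. With these gene lists the core and the regulatory particle lay between the 2 other complexes. The COP9 list holds both Cops7a (35.1 TPM) and Cops7b, its lowest gene at 4.03 TPM, while the alternative core forms were left out. The spread of COP9 without Cops7b was not computed, so the order of the core and COP9 rests on this choice. The low Psma2 and Psma5 set the lower end of the core, and the high Psmc3 and Psmd2 the upper end of the particle. No test was made of these spreads.

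Activators that open the core were unevenly expressed. Psme1, 1 subunit of the interferon-inducible activator PA28, was at 97.93 and 89.96 TPM, and its partner Psme2 at 37.0 and 38.6. Psme1 thus made up 71.3% ± 1.84 of the pair's TPM (SD, n = 2), or 70.8% ± 3.12 over coding transcripts alone. The genes lie 5911 bases apart on chromosome 14. Psme1 overlaps Emc9, a gene on the other strand at 21.7 TPM, and how the counting used strand is not given in the sources used here. Psme2b, a single-exon copy of Psme2, was at 1.38 and 1.90 TPM, from 32.1 and 42.8 counts. Its counts are not whole because reads were divided between the copies, so its level is uncertain. Psme3, the nuclear activator PA28 gamma, was at 38.6 and 26.6 TPM.

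Psme4, the activator PA200, was at 82.2 and 77.3 TPM. It was the most counted of all the proteasome genes, with 15939 and 14470 counts, and its leading transcript is 6491 bases long. Per length it was close to Psmd2 and below Psme1. Over coding transcripts alone Psme1 was lower, at 60.1 and 66.0 TPM against 79.1 and 74.1 for Psme4-201. Psmf1, the inhibitor PI31, was at 8.47 and 9.24 TPM, near the middle of the detected coding genes (percentile 50.6).

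The assembly chaperones, which guide the subunits into place and leave the finished particle, were lower, with a median of 6.0 and 6.59 TPM. Those of the core were Psmg2 (12.7 ± 0.742 TPM), Psmg1 (10.8 ± 1.88), Psmg4 (9.40 ± 1.11) and Psmg3 (4.03 ± 0.297). Those of the regulatory particle were Psmd9 (6.30 ± 0.417 TPM), Psmd5 (5.31 ± 0.212) and Psmd10 (4.78 ± 0.156; SD, n = 2). The highest chaperone, Psmg2 at 13.2 and 12.2 TPM, was below the lowest subunit of the core or the regulatory particle in both libraries. This gap was absent in the second quantification, where Psmg2 was at 15.4 and 14.6 TPM and Psma2 at 14.6 and 14.8. The maturation factor Pomp, which the name rule leaves out, was at 47.9 and 50.6 TPM, within the range of the core subunits. Psmc3ip matches the name rule but encodes a recombination factor that binds Psmc3 rather than a subunit. It was at 0.98 and 1.46 TPM, and 60.1% ± 4.54 of this was in a transcript with a retained intron.

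Other genes of the route from ubiquitin to the proteasome were listed beside the members. The ubiquitin precursor genes Ubb and Rps27a were at 263 and 260 TPM and at 174 and 180 TPM, above every proteasome gene in both libraries. Nfe2l1, whose product NRF1 switches on proteasome genes when the proteasome is overloaded, was at 145 and 146 TPM. Its relative Nfe2l2 was at 23.8 and 25.3, Vcp, which extracts NRF1 from the membrane, at 94.5 and 95.7, and the enzymes Ddi2 and Ngly1, which process it, at 11.7 ± 0.728 and 14.7 ± 2.08 (SD, n = 2). The muscle ubiquitin ligases Trim63 and Fbxo32 were at 84.1 ± 0.290 and 35.1 ± 2.62 TPM. Of the enzymes bound to the proteasome, Usp14 was at 29.7 ± 0.926 TPM, Ube3c at 14.4 ± 1.46 and Uchl5 at 6.83 ± 0.290. The shuttle factors that bring ubiquitinated proteins were Rad23b (40.7 ± 2.22), Ubqln4 (25.6 ± 3.11), Ubqln1 (18.0 ± 0.240) and Ubqln2 (10.9 ± 0.0707). All 4 were below the median of the core genes.

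Each gene was then compared between the libraries with an exact two-sided binomial test on rounded expected counts, with Benjamini-Hochberg adjustment over the 13745 genes whose counts summed to 50 or more. Of these, 48 were proteasome genes, and Psma8 and Psmb11 were too low. At an adjusted p under 0.05 together with a difference of 2-fold or more, 0 of the 48 passed, against 1.53% of all genes tested. At any fold 4 of 48 (8.33%) passed, against 21.9% of all genes. Without adjustment 12 of the 48 had a p under 0.05, as did 4362 of all 13745 genes. By edgeR's exact test with a common dispersion, estimated from these libraries, 155 of all genes were called, none of the 48 was called and none of the 48 had an unadjusted p under 0.05.

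Psme3 was the only one of the 4 that was lower in replicate 2. Its counts were 2170 and 1575, a log2 ratio of replicate 2 over replicate 1 of -0.36 (95% counting interval -0.45 to -0.27, binomial test with Benjamini-Hochberg adjustment, adjusted p = 1.19e-12). In the second quantification it was at 58.5 and 40.0 TPM, again lower in replicate 2. The other 3 are subunits of the regulatory particle that were higher in replicate 2. Psmd7 had 1557 and 1682 counts (log2 ratio 0.21, adjusted p = 2.6e-04), Psmc1 1843 and 1936 (0.17, adjusted p = 0.00183) and Psmd11 2532 and 2621 (0.15, adjusted p = 0.00137). The animals differed in erythroid and brown fat RNA in the direction of Psme3 and opposite to these 3, and its part in the differences was not tested. The counts called depend on the scaling: with sizes from total mouse counts 12 of 48 passed at any fold, 11 of them lower in replicate 2, against 28.1% of all genes tested, and Psmc1 and Psmd11 did not pass. With sizes from the spike-in RNAs 38 passed, 37 of them higher in replicate 2, against 57.9% of all genes, and the median log2 ratio of all genes tested was 0.24.

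The proteasome genes were otherwise close in the 2 animals. Of the 48, 43 (89.6%) were within 1.2-fold and all 48 within 1.5-fold, where 77.6% of all genes tested were within 1.2-fold. The median absolute log2 ratio was 0.07 over the 48 and 0.13 over all genes, whose median summed count was lower, at 916 against 3082. Among genes whose counts summed to 1000 or more the median was 0.06 for 37 proteasome genes and 0.09 for all 6557, and the share called at any fold was 10.8% and 33.2%. The 14 core genes all lay between log2 ratios of -0.10 and 0.09, and none was called. The 17 regulatory particle genes lay between -0.14 and 0.21. The widest values were those of genes with few counts: Psme2b at 0.52 and Psmc3ip, whose intervals both held 0. Psmg1, at 357 and 271 counts, missed the threshold (log2 ratio -0.29, adjusted p = 0.0532 by the binomial test). Of the 19 related genes of the ubiquitin route that are given here, 7 passed at any fold as higher in replicate 2 (Adrm1, Nfe2l1, Nfe2l2, Vcp, Ubb, Rps27a and Fbxo32) and 1 as lower (Ube3c), where 21.9% of all genes tested passed in either direction. The smallest adjusted p among these was that of Fbxo32 (log2 ratio 0.21, adjusted p = 3.95e-17 by the binomial test), under 2-fold.

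**Figure D3:**
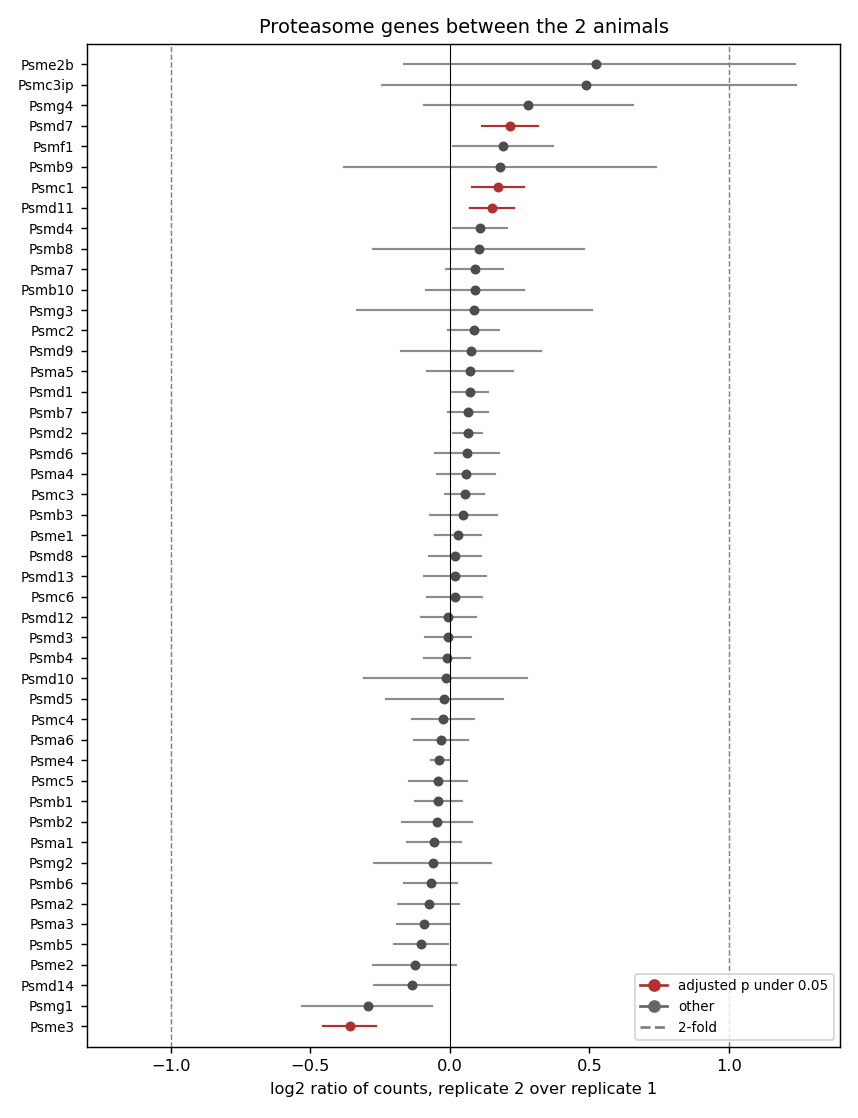
Log2 ratio of counts of replicate 2 over replicate 1 for the 48 tested proteasome genes, with exact 95% counting intervals, sorted by value. The 4 genes with an adjusted p under 0.05 (binomial test across all genes) are in red, and none reaches the dashed 2-fold lines.

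The second quantification gave higher TPM for most of these genes. The ratio of the second to the first was below 1 for 5 of the 47 detected genes, with a median of 1.21, against 1.16 over detected protein-coding genes. The counts themselves were nearly equal, with a median ratio of 0.984, and 33 of 47 were within 0.9 to 1.1. The effective length, by which counts are divided, was 99 bases shorter than the transcript in the first quantification and a median of 329 and 326 bases shorter in the second. Such a subtraction weighs more on short transcripts than on long ones.

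For some genes the counts agreed within a few percent and the TPM did not. Psmc6 had 1.05 times the counts but 2.02 times the TPM in the second quantification, where its short transcript Psmc6-208, of 813 bases, took 41.7% ± 1.45 of the TPM, against 27.8% ± 8.36 in the first. Psma1 had equal counts in replicate 1 (1797 in both) but 52.0 and 82.7 TPM, and non-coding transcripts took 1.33% ± 0.496 of its level in the first and 33.5% ± 0.841 in the second (SD, n = 2). In contrast, Psmb5 lost reads: 1871 and 1623 counts became 1164 and 1050, while its TPM ratio was 0.953. The lowest TPM ratio was that of Psma2 (0.710, with 0.777 of the counts). Psma2 shares its strand and position with AW209491, a gene at 4.17 TPM, and the part of this overlap was not tested. Psmd4 (0.849), Psme2b (0.918) and Psmd2 (0.946) were the others below 1.

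**Figure D4:**
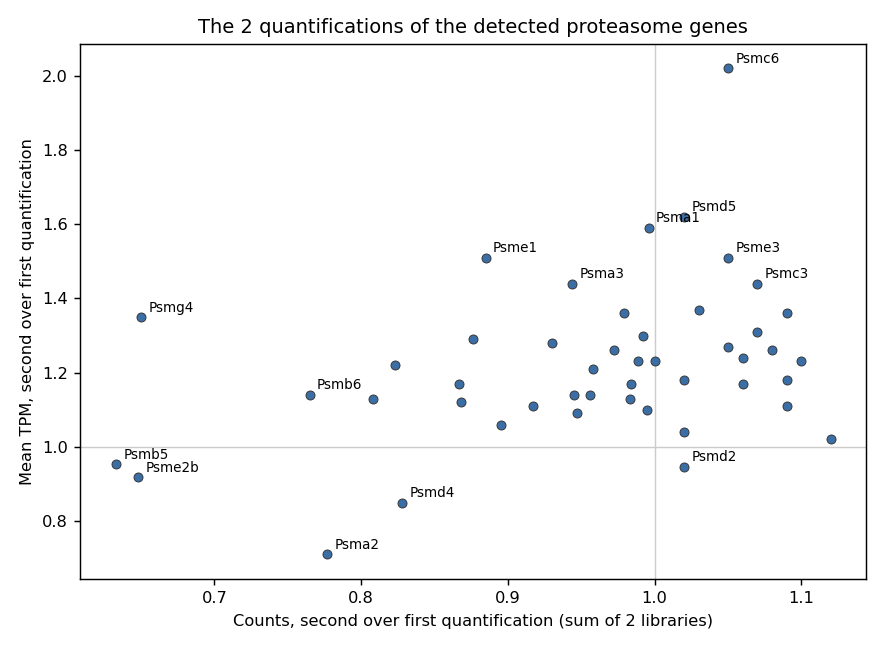
Ratio of the second to the first quantification for the 47 detected proteasome genes: counts summed over 2 libraries on the x axis, mean TPM on the y axis. Psmc6 stands highest at a TPM ratio of 2.02 with nearly equal counts, and Psma2 lowest at 0.710.

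The gene-level values hide how many transcripts of each gene are annotated as coding. In 41 of 47 detected genes both quantifications put the same transcript first, and in 33 it held over 50% of the gene's TPM in both. For 12 it held over 90% in both, among them Psmb7-201 (99.8% and 99.9%), Psma5-201 (100% in both) and Psme4-201 (96.0% and 95.3%). The leading transcript differed for Psma3, Psmb1, Psmb8, Psmc6, Psmd8 and Psmd9. For Psmb1 the 2 candidates are both coding: Psmb1-201 held 69.7% in the first quantification and 0.761% in the second, and Psmb1-204 28.5% and 97.8%.

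Among the 47 detected genes, transcripts not annotated as protein-coding took over 20% of the TPM of 11 in the first quantification and of 15 in the second, and under 10% of 23 genes in both. Psmb10 was the highest of the 47 in the first, and its share was similar in the second, at 57.0% ± 4.67. Psmd13 was led in both by Psmd13-211, annotated as a target of nonsense-mediated decay, at 40.3% ± 3.39 and 51.7% ± 2.85. Psma3 had 44.1% ± 1.94 in such transcripts in the first and 92.2% ± 6.75 in the second. Psmc6 rose from 41.2% ± 5.34 to 76.96% ± 0.675 and Psmc4 from 7.31% ± 2.11 to 46.1% ± 3.40, while Psmb8 fell from 46.4% ± 2.96 to 10.7% ± 9.95 (SD, n = 2). These shares thus rest on the quantification used for Psma3, Psmc4, Psmc6 and Psmb8, and less so for Psmb10 and Psmd13.

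**Figure D5:**
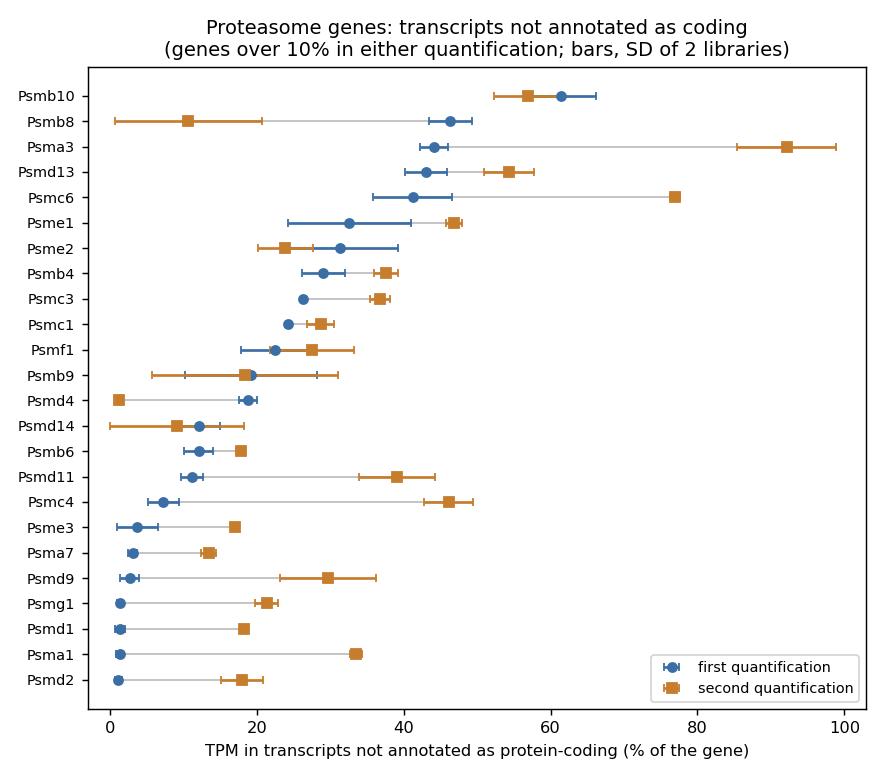
Percent of each gene's TPM in transcripts not annotated as protein-coding, for the detected proteasome genes over 10% in either quantification; points are means and bars SD over 2 libraries, blue for the first and orange for the second quantification. Psmb10 (61.4% and 57.0%) and Psmd13 (43.1% and 54.3%) are high in both, while Psma3 goes from 44.1% to 92.2%.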

How the data were processed

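The authors quantified each library against mm10 with GENCODE annotation M21, per the deposited description files. No source used here names a program or version. In the first quantification are deposited expected counts (columns as RSEM writes them), and the authors' TPM, a scaling by effective length. The second (columns as kallisto writes them) holds estimated counts and TPM per transcript, deposited by the authors and summed here per gene. The reference is that of C57BL/6J, and the effect of CAST mismatches was not measured. Rows named by a bare number (26248, holding 5.89 counts) and 97 spike-in rows were left out of the library sizes.

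Expected counts were rounded and compared with an exact binomial test (scipy 1.17.1) on TMM sizes (edgeR 4.0.16), with 0.5 added to each count for log2 ratios. The comparison was tested on simulated data. DESeq2 1.42.0 gave alternative size factors. The dispersion of edgeR's exact test gave a biological coefficient of variation of 0.113. All 50 members are named at least once. The comparison lists are named by count, with those called between libraries and members of the related and interferon lists. The members and lists were chosen with earlier results of these data known. Paaf1, on the list of assembly factors, was not analysed here, and some other genes of the comparison lists are not reported here.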

Additional observations from a re-analysis of the deposited data

How the results depend on the processing

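The second quantification moved the median levels from 57.2 to 68.3 TPM for the 20S core, from 38.1 to 45.2 for the regulatory particle, from 35.2 to 46.8 for activators and inhibitor, and from 6.30 to 8.61 for the assembly chaperones, and the log2 spread to 0.82 in the core and 0.53 in the particle. With 1 added to the TPM the core's spread was 0.67. The posterior mean TPM put the immunoproteasome median at 4.20 instead of 4.01. From expected counts Psmb8 made up 6.46% and Psmb10 14.6% of their pairs. From coding transcripts they made up 2.97% and 8.85% in the first quantification, and 5.215% and 9.765% in the second.

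Between the libraries, the count of genes called at any fold went from 4 of the members to 12 with total mouse counts, 38 with spike-in counts, 7 in the second quantification and 0 with edgeR's exact test. Over all genes tested the share called went from 21.9% to 28.1%, 57.9% and 22.2%, and edgeR's exact test called 155 genes. Spike-in scaling moved the median log2 ratio of the members from 0.02 to 0.27. The cause was not tested. No alternative called a member at 2-fold. With 2 libraries of 1 group, a spread between animals rests on 2 values, and genes such as Psmb9 and Psme2b rest on under 60 counts a library. No paired analysis was possible because the samples form 1 group.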

Other observations

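Neighbours among the proteasome genes could be far apart in level. Psmb5 and its thymus counterpart Psmb11 lie 3410 bases apart on chromosome 14 and run in opposite directions; Psmb5 had 1871 and 1623 expected counts and Psmb11 had 1 and 0. In the second quantification these were 1164 and 1050 for Psmb5 and 7.80 and 5.62 for Psmb11. Of the 50 genes, 10 lie on chromosome 11, from Psme2b at 1.38 and 1.90 TPM to Psmb6 at 90.04 and 83.01. The 4 pseudogenes of Psmb5, Psmb6 and Psmb7 in the annotation took 2 counts in sum in replicate 1 and 0 in replicate 2; both pseudogenes of Psmb6 had 0 in both libraries. Psmc3, the highest ATPase gene, overlaps Slc39a13, a zinc transporter gene at 8.43 TPM on the other strand.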
